A study of Caenorhabditis elegans with 16 samples.

Results

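The cdk-1 part of the cdk-1::gfp reporter was read for antisense small RNAs in 4 libraries of whole *Caenorhabditis elegans*, 1 library for each genotype. cdk-1 encodes a cyclin-dependent kinase that drives entry into mitosis, and it is 1 of 3 worm genes on the reporter references of the series. Reads were taken as cdk-1 reads where their first base paired with bases 43 to 1044 of the reference, the coding sequence of cdk-1, or with the last 181 bases before the end of the reference at 1966, the 3′ flank clear of the border with gfp. Bases 1039 to 1044 join cdk-1 to gfp on the reporter and are counted with the coding sequence here. The cdk-1 reads made up 1913 of the 7673 reads of the 4 libraries (24.9%), and of the 70009 reads of all 16 libraries of the series (2.73%). They began at 212 different positions. The worm's own cdk-1 lies on chromosome III from 9747472 to 9748852 in build WBcel235. It has introns, but its exon borders were not placed on the reference here.

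The libraries were made from synchronous populations whose age the labels do not give. The rde-3 library came from rde-3(ne3370) worms with the intronless insertion neSi71 on chromosome II. The prg-1 library came from prg-1(tm872) worms with unc-119(ed9) and another intronless insertion, neSi73, on the same chromosome. The intronless library came from worms with neSi71 and unc-119(ed9). The library with introns came from worms with the insertion neSi12, the intron-containing cdk-1::gfp, and unc-119(ed9). All 3 insertions carry Cbr-unc-119(+), and unc-119(ed9) is not listed for the rde-3 strain. No strain has a listed change in its own cdk-1, so each holds that gene beside the reporter. Reads of the coding sequence or of the flank can stem from either copy, except those that begin in the 6 bases joining cdk-1 to gfp on the reporter, whereas gfp is no worm gene. Whether cdk-1 reads also match other loci of the genome could not be checked. In whole worms, fewer cells of a type and less small RNA per cell cannot be told apart. rde-3 and prg-1 themselves are not on the reference, so the mutations could not be checked in the reads.

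22G-RNAs are antisense small RNAs that begin with G, made by RNA-dependent RNA polymerases on messenger RNA and bound by Argonaute proteins. In the *C. elegans* germ line, those bound by worm-specific Argonautes (WAGOs) accompany silencing and need the nucleotidyltransferase RDE-3. Those bound by the Argonaute CSR-1 match genes expressed in the germ line, form largely without RDE-3, and are the main small RNAs to which the enzyme CDE-1 adds uridines at the 3′ end. PRG-1 is the Piwi Argonaute that binds piRNAs, which can start 22G-RNA production on a target.

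Reads of all 4 libraries were placed on the intronless sequence, so reads on introns are not analysed here. All listed reads were 22 nt long, began with G and were antisense to the reference with at most 1 mismatch. A level is given in ppm, the authors' scaled read count, and was compared between segments per 100 nt of segment. Total reads on the reporter numbered 861 in rde-3, 3148 in prg-1, 3126 in the intronless library and 538 with introns. The 95% intervals after levels (exact Poisson), shares (exact Clopper-Pearson) and ratios (exact conditional) cover counting error only, since the reads were amplified by PCR without molecular identifiers. With 1 library per genotype there was no replicate check, and no p-value is given.

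The most read positions of the coding sequence are shown first, because the same few start sites led in several libraries. Sequences are printed 5′ to 3′ as the DNA letters of the small RNA, and their first 2 bases stand in capitals, the first being the G that every read has and the second the base by which read counts differed below. The number before each is the base of the reference that pairs with the first G.
Position 102: GTtgagtgtgtaaaccgaatct
Position 342: GAattcgaagatcaggaaaagc
Position 126: GAttttttcgagcttcgtgaaa
Position 963: GAgagcttttttcgcgttgaga
Position 361: GTttcaagtcgaaagacaggaa
Position 420: GTaacttttaagagtttcgagc
Position 807: GTagtccggaagtgattcaaca
The first 6 are those with the highest ppm averaged over the 4 libraries, in that order, and the last was the highest position of the prg-1 library. Position 102 was the highest of the coding sequence in rde-3, in the intronless library and with introns, and position 342 came next in rde-3 and with introns.

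On the coding sequence of cdk-1, the level was highest in rde-3, followed by the reporter with introns, the intronless reporter and prg-1. It was 234 ppm (217 to 251; 738 reads) in rde-3, 65.6 ppm (54.8 to 77.9; 130 reads) in prg-1, 163 ppm (146 to 180; 372 reads) in the intronless library and 197 ppm (179 to 216; 435 reads) with introns. The intervals of the 4 libraries were apart, except that those of the intronless library and of the library with introns touched near 180 ppm. The 3′ flank had the same lowest library and the same highest one. Its level was 34.5 ppm (28.3 to 41.6) in rde-3, 13.1 ppm (8.57 to 19.2) in prg-1, 24.9 ppm (18.9 to 32.3) in the intronless library and 20.8 ppm (15.2 to 27.8) with introns. Here the intervals of neighbouring levels overlapped throughout.

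Per 100 nt, the coding sequence had 23.3 ppm in rde-3, 6.54 ppm in prg-1, 16.2 ppm in the intronless library and 19.7 ppm with introns. The flank had 19.1, 7.25, 13.8 and 11.5 ppm per 100 nt in the same 4 libraries, in that order. The 2 segments were near each other per length in all libraries but one. Coding over flank was 1.22 (0.999 to 1.51) in rde-3, 0.903 (0.589 to 1.43) in prg-1 and 1.18 (0.890 to 1.59) in the intronless library. With introns it was 1.71 (1.26 to 2.37), the one interval that lay wholly above 1.

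gfp in the same libraries spanned a far wider range. Per 100 nt it had 0.50 ppm in rde-3, 214 ppm in prg-1, 166 ppm in the intronless library and 3.64 ppm with introns. The coding sequence of cdk-1 therefore made up 85.7% of all reads on the reporter in rde-3 and 80.9% with introns, but 4.13% in prg-1 and 11.9% in the intronless library. Per length, cdk-1 over gfp was 46.6 in rde-3, 0.0306 in prg-1, 0.0978 in the intronless library and 5.40 with introns.

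**Figure D1:**
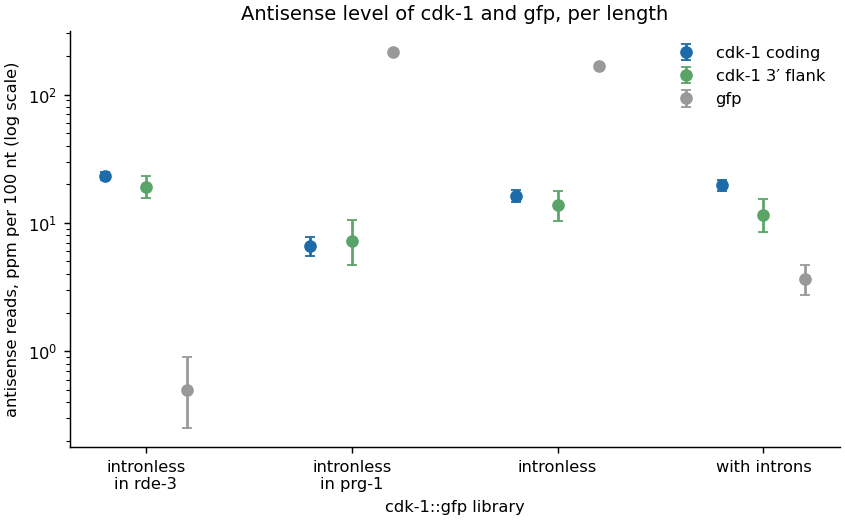
Antisense level in ppm per 100 nt (log scale) on the cdk-1 coding sequence, the cdk-1 3′ flank and gfp in each of the 4 libraries, with bars for the 95% Poisson interval of the reads. The coding sequence lies between 6.54 and 23.3 ppm per 100 nt, and gfp between 0.50 and 214.

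The first comparison asks whether taking the introns out of the reporter goes with a change of antisense reads. On the coding sequence, intronless over with introns was 0.826 (0.717 to 0.95), and on the flank 1.20 (0.797 to 1.80). The difference between cdk-1 and gfp within the same 2 libraries does not depend on how a library was scaled. Relative to gfp, the coding sequence was 55.1-fold lower (40.9 to 74.3) in the intronless library than in the library with introns. Relative to the flank it was 0.690 (0.457 to 1.04), an interval that includes 1.

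In windows of 100 nt, 0 of the 10 coding windows were at least 2-fold higher and 0 were at least 2-fold lower in the intronless library. Over all 19 windows of the reporter with at least 10 reads in the pair, 36.8% were at least 2-fold higher and 0% at least 2-fold lower, and the 7 higher ones were those of gfp. The coding windows had a median ratio of 0.833, from 0.523 to 1.5. The window of bases 343 to 442 had 22.7 ppm in the intronless library and 43.5 ppm with introns, which gave 0.523 (0.366 to 0.740). For the first window, bases 43 to 142, the ratio was 0.716 (0.517 to 0.989), from 30.2 ppm in the intronless library and 42.1 ppm with introns. The other 8 coding windows had intervals that included 1, among them the window from base 643 with a ratio of 0.559 (0.240 to 1.24) and that from base 743 with 0.821. The last of them, bases 943 to 1044, lies next to gfp and had a ratio of 1.15, with 24.5 ppm in the intronless library and 21.3 ppm with introns.

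The 2 windows whose intervals lay below 1 were both before base 543. A division of the coding sequence after that base was chosen once these values had been seen, so it restates them and is no separate support. The 5′ side had 83.0 ppm in the intronless library and 123 ppm with introns, and their ratio was 0.677 (0.559 to 0.818). The 3′ side had 79.5 ppm and 74.2 ppm in these libraries, and their ratio was 1.07 (0.863 to 1.33). The 5′ side held 51.1% (45.9 to 56.3) of coding reads in the intronless library and 62.3% (57.6 to 66.9) with introns.

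The second comparison sets the intronless reporter in rde-3 against the intronless reporter with rde-3 intact. On the coding sequence, rde-3 over intronless was 1.44 (1.27 to 1.63), and on the flank 1.39 (0.997 to 1.94). The denominator of the rde-3 library, 3159055.0, was the largest of the 4, and without scaling the coding ratio of reads was 1.98. Against gfp in the same libraries, the coding sequence was 476-fold higher (260 to 872) in rde-3, a value that no scaling enters. Against the flank it was 1.04 (0.736 to 1.46).

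Of the coding windows, 1 of 10 was at least 2-fold higher in rde-3 and 0 were at least 2-fold lower. Over all 19 windows, 5.26% were at least 2-fold higher and 36.8% at least 2-fold lower, the lower ones being the 7 of gfp. The coding windows had a median ratio of 1.34, from 0.724 to 2.05, with 9 of 10 above 1, against 11 of all 19 windows. Of the 10 coding intervals, 3 lay wholly above 1 and the rest included 1. The window that passed 2-fold was bases 343 to 442, at 46.5 ppm in rde-3 and 22.7 ppm in the intronless library, 2.05 times as high (1.48 to 2.87). Its low ratio in the first comparison came from the same 52 intronless reads, so these ratios are not separate evidence. The lowest was bases 743 to 842, with 5.38 ppm in rde-3 against 7.43 ppm.

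The reporter with introns lay between rde-3 and the intronless library on the coding sequence. The coding level in rde-3 was 1.19 times that with introns (1.05 to 1.34) and the flank 1.66 times (1.16 to 2.39). The 5′ side held 56.0% (52.3 to 59.6) of the coding reads in rde-3, a share between those of the intronless library and of the library with introns.

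The third comparison sets the intronless reporter in prg-1 against the intronless reporter with prg-1 intact, and the 2 strains also differ in the insertion they carry. The coding level was 2.48-fold lower (2.03 to 3.05) in prg-1, a ratio of 0.403 (0.328 to 0.494). The flank had a ratio of 0.526 (0.318 to 0.851). Both cdk-1 segments were thus lower in prg-1, while gfp in the same libraries had 1490.4 ppm in prg-1 against 1154 ppm in the intronless library. Against gfp, the coding sequence was 3.20-fold lower in prg-1, and against the flank 0.766 (0.462 to 1.27).

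All 10 coding windows had a lower level in prg-1, against 14 of all 19 windows, and 7 of 10 were at least 2-fold lower. Over all 19 windows, 42.1% were at least 2-fold lower and 0% at least 2-fold higher. The 8 lower ones were 7 coding windows and 1 of the 2 flank windows. The coding ratios had a median of 0.409 and ran from 0.268 to 0.747. The first window, bases 43 to 142, had the lowest ratio, with 8.07 ppm in prg-1 against 30.2 ppm in the intronless library, 0.268 (0.145 to 0.466). The highest ratio, in bases 743 to 842, came from 5.55 ppm in prg-1 against 7.43 ppm. Few reads stand behind single windows in prg-1, so that 6 of the 10 coding intervals lay below 1, against 8 of all 19. The intronless library was itself below the library with introns, and prg-1 over with introns was 0.333 (0.272 to 0.406) on the coding sequence.

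**Figure D2:**
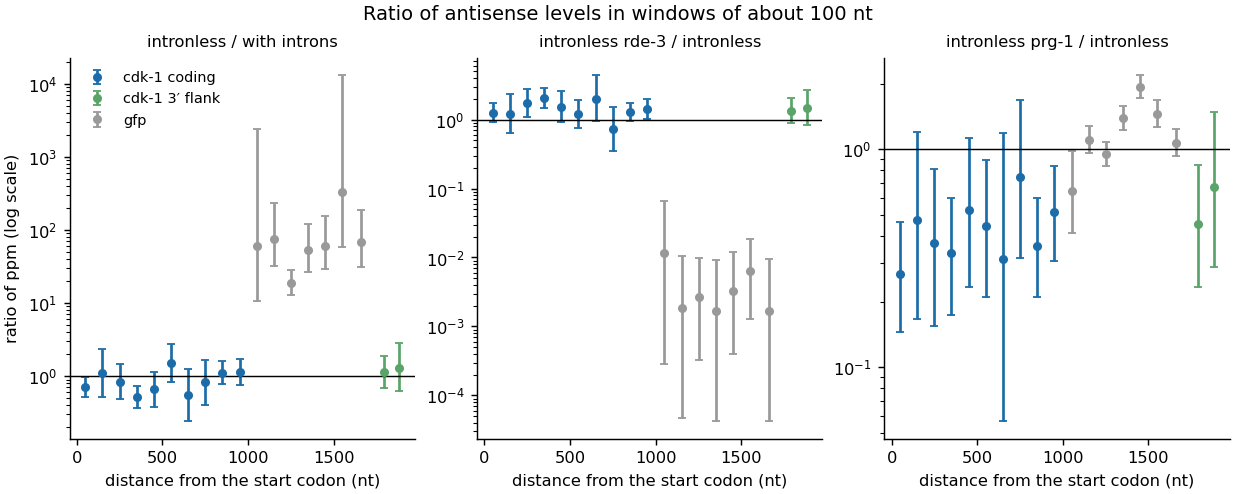
Ratio of the antisense level between 2 libraries (log scale) in windows of about 100 nt, plotted at their distance from the start codon in nt, with 95% conditional intervals; the line marks a ratio of 1. The cdk-1 windows stay between 0.268 and 2.05 in all 3 comparisons. The gfp windows lie between 18.6 and 330.2 for intronless over with introns and between 0.00166 and 0.0115 for rde-3 over intronless. For prg-1 over intronless they lie between 0.641 and 1.94, against 0.268 to 0.747 for the cdk-1 coding windows.

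Other worm-gene segments of the series, read on their own reporters in the same genotypes, are set beside these ratios. The oma-1 coding sequence of oma-1::3xflag had ratios of 46.4 for intronless over restored introns, 0.0474 for rde-3 over intronless and 7.93 for prg-1 over intronless. The his-61 coding sequence of gfp::his-61 had 0.859 (0.454 to 1.63), 1.53 (0.917 to 2.64) and 15.6 (10.2 to 25) for the same 3 comparisons. The oma-1 ratios thus lay on the other side of 1 from those of cdk-1 in all 3, and the his-61 ratio did so for prg-1 over intronless, while the first 2 his-61 ratios were near those of cdk-1 with intervals that include 1. The differences between genes were not tested. Whether reads on oma-1 or his-61 also match other loci of the worm was not checked.

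The read profiles along cdk-1 shared several peaks. Which pair of libraries was least alike depended on the measure. Peaks stood near the start of the gene, from base 342 to 366 and towards the end of the coding sequence. The window of bases 343 to 442 had 46.5 ppm in rde-3, 7.57 ppm in prg-1, 22.7 ppm in the intronless library and 43.5 ppm with introns. Bases 143 to 242, by contrast, had 8.86, 3.53, 7.43 and 6.79 ppm in these libraries. Across the 10 coding windows, Pearson's r was 0.83 between the intronless library and the library with introns, 0.92 between rde-3 and the intronless library and 0.85 between prg-1 and the intronless library. The lowest r was that of prg-1 with the library with introns, at 0.54. By Spearman's rank correlation the lowest was rde-3 with prg-1, at 0.71, against 0.78 for prg-1 with the library with introns. The prg-1 profile rests on 130 coding reads, the fewest of any library. The 5′ side held 44.6% (35.9 to 53.6) of the coding reads in prg-1 and 62.3% (57.6 to 66.9) with introns. Windows share base composition and are not replicates, so these are descriptions.

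Single positions had few reads, so only large differences between them can be told from counting error. Position 102 had 36 reads (11.4 ppm) in rde-3, 6 reads (3.03 ppm) in prg-1, 20 reads (8.74 ppm) in the intronless library and 27 reads (12.2 ppm) with introns. Position 342 had 33, 3, 16 and 20 reads in these 4 libraries. At both, prg-1 was lowest and the intronless library next. Position 963 differed from them, with 26 reads (8.23 ppm) in rde-3, 4 reads (2.02 ppm) in prg-1, 17 reads (7.43 ppm) in the intronless library and 6 reads (2.72 ppm) with introns. Intronless over with introns was 2.74 (1.03 to 8.47) there, the one ratio above 1 among the 7 coding positions with at least 20 reads in that pair. As the highest of these 7, it has an interval that does not allow for that choice.

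Position 420 went the other way. It had 22 reads (6.96 ppm) in rde-3, 4 reads (2.02 ppm) in prg-1, 3 reads (1.31 ppm) in the intronless library and 14 reads (6.34 ppm) with introns. Its rde-3 over intronless ratio of 5.31 (1.60 to 27.7) was the highest among 17 positions with at least 20 reads in that pair, followed by 4.83 (1.43 to 25.4) at position 719. At both, the intronless library was low and the library with introns near rde-3. Both were named for having the highest ratios of the 17, which favours a low intronless count. Their intervals do not allow for that choice.

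Some positions of high level elsewhere were not read in prg-1. Position 366 had 25 reads in rde-3, 0 in prg-1, 9 in the intronless library and 10 with introns, and position 93 had 12, 0, 10 and 17. A count of 0 in prg-1 allows up to 1.86 ppm by its exact interval. Position 807 was the highest of the prg-1 library, with 10 reads (3.17 ppm) in rde-3, 7 reads (3.53 ppm) in prg-1, 2 reads (0.874 ppm) in the intronless library and 9 reads (4.07 ppm) with introns. In prg-1, 2 positions had 20 or more reads in the pair with the intronless library, 963 with a ratio of 0.272 and 102 with 0.346.

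In the 3′ flank the 3 positions with the highest mean level were 1846, 1854 and 1942. They are shown because these flank reads lie beyond gfp on the reporter.
Position 1846: GAtagttaaacaatacacggaa
Position 1854: GAaatggtgatagttaaacaat
Position 1942: GTagagcgaatttatttatcgc
The capitals again mark the first 2 bases of the read. Position 1854 had 15 reads in rde-3, 0 in prg-1, 5 in the intronless library and 5 with introns. Position 1846 had 11, 1, 7 and 9 reads in these libraries. Both overlap in sequence, since position 1846 is 8 nt from 1854, and their reads are not separate evidence.

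Reads were spread over much of the gene. The coding sequence has 219 cytosines, the bases that can pair with the first G. Of these, 133 (60.7%) had a read in rde-3, 65 (29.7%) in prg-1, 110 (50.2%) in the intronless library and 111 (50.7%) with introns. The library with the fewest coding reads, prg-1, also had the fewest cytosines in use. In all, 173 (79.0%) had a read in at least 1 library and 43 (19.6%) had one in each. These 43 held 65.4% of coding reads in rde-3, 80% in prg-1, 65.6% in the intronless library and 65.5% with introns. The set was chosen by having a read in every library, and prg-1 had only 65 cytosines to choose from. Its higher share is therefore no separate result. The 10 highest positions of a library held 33.9% of its coding reads in rde-3, 36.2% in prg-1, 34.9% in the intronless library and 36.8% with introns. On gfp, the 10 highest held 42.5% in prg-1 and 38.2% in the intronless library.

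Reads were more frequent at cytosines whose read has A or T after its first G. In the coding sequence, 135 of 219 cytosines (61.6%) give a read with A or T as the second base. They held 87.2% (84.6 to 89.5) of the reads in rde-3, 90.8% (84.4 to 95.1) in prg-1, 90.9% (87.5 to 93.6) in the intronless library and 88.9% (85.6 to 91.7) with introns. Of the 10 coding positions with the highest mean level, all but 427 gave reads that begin with GA or GT. Reads per site were 4.24 times those of the other cytosines in rde-3, 6.12 times in prg-1, 6.19 times in the intronless library and 5.00 times with introns. Of the 46 cytosines that no library used, 16 were among the 35 (45.7%) whose read would begin with GG and 13 among the 49 (26.5%) with GC. For GA it was 11 of 80 (13.8%) and for GT 6 of 55 (10.9%). gfp had the same skew, with reads per site 4.08 times those of the other cytosines in prg-1 (3.64 to 4.58) and 4.54 times in the intronless library (4.00 to 5.16), so it was not particular to cdk-1. The mean GC content of coding reads was 43.3% to 43.8% in the 4 libraries, against 46.9% for all cytosine sites.

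The position within the codon also went with the reads. The third codon position holds 84 of the 219 cytosines (38.4%), and reads that began there made up 60.3% (56.6 to 63.8) in rde-3, 54.6% (45.7 to 63.4) in prg-1, 62.6% (57.5 to 67.6) in the intronless library and 58.1% (53.3 to 62.8) with introns. Each interval lay above the share of cytosines. Base composition differs between codon positions, and among the 135 cytosines with A or T as the second base of the read, 49.6% were at the third position. Those held 65.7% (61.9 to 69.4) of such reads in rde-3, 59.3% (49.9 to 68.3) in prg-1, 66.6% (61.3 to 71.6) in the intronless library and 63.2% (58.2 to 68.0) with introns. gfp, with 39.0% of its cytosines at the third codon position, had 55.9% of its reads there in prg-1 and 49.2% in the intronless library.

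**Figure D3:**
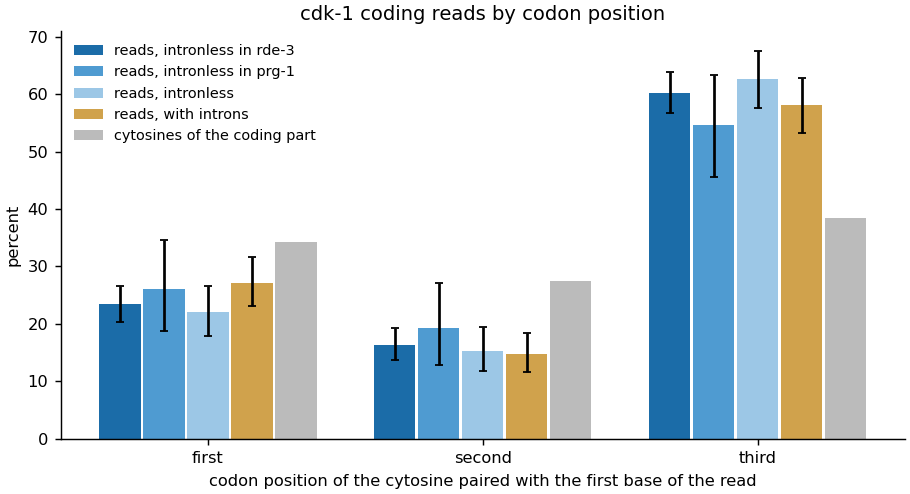
Percent of cdk-1 coding reads whose first base pairs with a cytosine at each codon position, in each of the 4 libraries, with 95% intervals, beside the percent of coding cytosines at that position (grey). The third position holds 54.6% to 62.6% of the reads and 38.4% of the cytosines.

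Mismatched reads on cdk-1 were of 1 kind for the most part, a T at base 22 where the reference gives another base. In the coding sequence, reads with a mismatch numbered 59 in rde-3, 15 in prg-1, 34 in the intronless library and 36 with introns. The mismatch was at base 22 in 46, 11, 26 and 30 of these, and was a T in 43, 10, 25 and 29. Other mismatches at base 22, among reads whose reference base is not T, came to 2 in rde-3 and 0 in the other libraries. A T in the sequenced DNA stands for a U in the small RNA. Examples of reads with this T in capitals, with the reference's own last base in capitals on the line after it, are given for the 3 positions that lead by number of libraries and reads.
Position 591 read: gacaacttcatgcgtgtaaacT
Position 591 reference: gacaacttcatgcgtgtaaacG
Position 108 read: gaaatcgttgagtgtgtaaacT
Position 108 reference: gaaatcgttgagtgtgtaaacC
Position 420 read: gtaacttttaagagtttcgagT
Position 420 reference: gtaacttttaagagtttcgagC
At position 591 the read with T had 3 reads in rde-3, 2 in prg-1, 5 in the intronless library and 3 with introns, and the read without mismatch 4, 0, 4 and 1. At position 420 the T read had 7, 0, 1 and 2, against 15, 4, 2 and 12 without mismatch. Such reads came from 44 positions, of which 2 had them in all 4 libraries and 30 in 1.

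Among coding reads whose reference base 22 is not T, the share with this T was close to 10% in every library. It was 43 of 478 (9.0%, 6.59 to 11.9) in rde-3, 10 of 84 (11.9%, 5.86 to 20.8) in prg-1, 25 of 261 (9.58%, 6.30 to 13.8) in the intronless library and 29 of 282 (10.3%, 7.0 to 14.4) with introns. The 4 intervals overlapped although the level of cdk-1 reads differed 3.56-fold between rde-3 and prg-1. gfp reads in the same libraries had it less often where they were many, with 18 of 2019 (0.892%, 0.529 to 1.41) in prg-1 and 21 of 1659 (1.27%, 0.785 to 1.93) in the intronless library. The share on cdk-1 was 13.4 times that on gfp (6.36 to 28.0) in prg-1 and 7.57 times (4.30 to 13.3) in the intronless library. Where other worm genes had few reads, their shares had wide intervals that overlap those of cdk-1, so a high share is not shown to be particular to it. The share was 3 of 45 (6.67%, 1.40 to 18.3) on oma-1 in rde-3, from 1 distinct sequence, and 3 of 45 on oma-1 with restored introns. On his-61 in rde-3 it was 5 of 44 (11.4%, 3.79 to 24.6), where another 5 reads had a different mismatch at base 22. On his-61 it was 0 of 17 in the intronless library and 0 of 17 with introns, each of which allows up to 19.5%. With more reads, his-61 in prg-1 (105 ppm) had 10 of 282 (3.55%, 1.71 to 6.42). That interval lay below those of cdk-1 in rde-3 and with introns, and overlapped those of cdk-1 in prg-1 and in the intronless library. In the other cdk-1::gfp libraries gfp had too few reads to compare, with 0 of 6 in rde-3, which allows up to 45.9%, and 1 of 32 with introns.

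The contrast of cdk-1 with gfp in prg-1 and in the intronless library of cdk-1::gfp rests on reads and not on distinct sequences. With each distinct sequence counted once, the share was 14.3% (5.94 to 27.2) on cdk-1 against 8.80% (4.48 to 15.2) on gfp in prg-1, and 17.0% (9.87 to 26.6) against 9.24% (4.71 to 15.9) in the intronless library. The intervals then overlapped. On the flank the share of reads was 4.71% (1.3 to 11.6) in rde-3, 0 of 24 in prg-1, 2.17% (0.0550 to 11.5) in the intronless library and 2.56% (0.0649 to 13.5) with introns, too few reads to set it apart from the coding sequence. Reads longer than 22 nt were not analysed here.

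**Figure D4:**
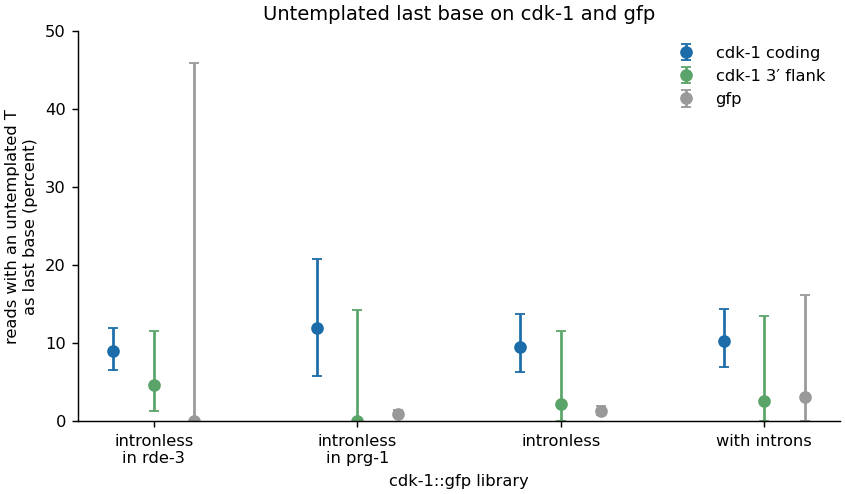
Percent of reads that end in a T not given by the reference, among reads whose reference base 22 is not T, on the cdk-1 coding sequence, the cdk-1 3′ flank and gfp in each library, with 95% Clopper-Pearson intervals. The coding sequence lies between 9.0% and 11.9% in the 4 libraries, and gfp at 0.892% in prg-1 and 1.27% in the intronless library.

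Reads at the borders of the cdk-1 segments were few at the start of the gene and many after gfp in 2 libraries. None paired its first base with the 42 nt before the start codon in any library. A 22-nt antisense read cannot begin before base 22 of the reference, so only part of that stretch could hold a start. Reads that begin within cdk-1 and reach into that 5′ flank numbered 3 in rde-3, 0 in prg-1, 2 in the intronless library and 1 with introns. The 6 bases that join cdk-1 to gfp are also found before gfp in the gfp::his-61 reference. They were the start of 4 reads in the intronless library and of 0 in the other 3. Between the stop codon after gfp and the start of the 3′ flank as counted here, 3 reads began in rde-3, 36 in prg-1, 53 in the intronless library and 1 with introns. As for gfp, prg-1 and the intronless library were the high ones, and these reads are not among the cdk-1 reads.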

How the data were processed

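Per the labels' protocols, small RNA from whole worms was enriched, treated with the polyphosphatase PIR-1, ligated to adaptors and amplified. Trimming and mapping tools were cutadapt and Bowtie2, with build WBcel235, per the submitters' processing notes, with versions not given in the sources used here. Deposited files list, per distinct sequence, raw read counts by the authors and an RPM value (ppm, per the file headers), with the position on the intronless reporter, also for the reporter with introns. Each RPM value was the count over 1 denominator per library, from 1982687.8 to 3159055.0, and the labels do not say what that denominator counts.

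Reads were summed by the base paired with their first G, per segment, per window of 100 nt from the first base of each segment, and per position. gfp was taken from base 1066 to 1761. Named positions are the 10 coding and 3 flank positions of highest mean ppm, the 3 highest of each library, and those with the 3 highest and 3 lowest ratios among positions with at least 20 reads in a pair. Positions 591 and 108, with the T reads, were chosen after their values were seen. Segments, lists and members were chosen with earlier results of these data known. Ratios of ratios have intervals from the log scale. The interval code was tested on simulated data. Alternatives left out the highest position, mismatched reads or reads within 25 nt of a border, used unscaled reads, counted distinct sequences once, and changed the windows. Splitting the coding sequence, leaving out the joining bases, and those for the T share were added after seeing the data. Computations used scipy 1.17.1, numpy 2.4.6 and pandas 2.3.3 under Python 3.11.15, and figures matplotlib 3.10.9.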

Additional observations from a re-analysis of the deposited data

Results flagged for a closer look

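The cdk-1 coding sequence went the opposite way from another worm gene of the series under the same contrast, with 1 library on each side and no test of the difference. For rde-3 over intronless, cdk-1 had a ratio of 1.44 while oma-1 on oma-1::3xflag had 0.0474; the his-61 coding sequence clear of gfp had 1.53 (0.917 to 2.64) there, on the same side of 1 as cdk-1. For prg-1 over intronless, cdk-1 had 0.403 while oma-1 had 7.93 and his-61 had 15.6. By the labels, oma-1::3xflag and gfp::his-61 are changes at the worm's own genes, whereas cdk-1::gfp is an insertion beside the worm's own cdk-1. For none of these genes was it checked whether the reads also match other loci.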

How the results depend on the processing

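The 3 main comparisons of the cdk-1 coding sequence were recomputed under every alternative. Intronless over with introns (0.826) became 0.977 with distinct sequences counted once, 0.677 in the 5′ side and 1.07 in the 3′ side of the coding sequence, where the direction turned. rde-3 over intronless (1.44) became 1.98 on unscaled reads, since the rde-3 library has the largest denominator. prg-1 over intronless (0.403) became 0.563 with distinct sequences counted once. rde-3 over with introns (1.19) became 1.70 unscaled and 1.39 in the 3′ side. prg-1 over with introns (0.333) became 0.550 with distinct sequences counted once, 0.238 in the 5′ side and 0.489 in the 3′ side. The share of coding reads ending in an untemplated T became, with distinct sequences counted once, 23.2% in rde-3, 17.0% in the intronless library and 16.0% with introns. Taken on the 3′ flank it was 4.71% in rde-3, 0% in prg-1, 2.17% in the intronless library and 2.56% with introns. Apart from the construction of these alternatives, the cause was not tested. Over 21 results, the other 76 values stayed within the main value's counting interval or, for correlations, an interval from Fisher's z. Among these, the flank ratio of intronless over with introns (1.20, 0.797 to 1.80) came to 0.917 with distinct sequences counted once, below 1. No paired analysis was possible because each genotype has 1 library. Depth limits single positions most: 0 reads in prg-1 allow up to 1.86 ppm.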
